A study of Ovis aries with 6 samples.

Results

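The aminoacyl-tRNA synthetases are the enzymes that attach each amino acid to its transfer RNA, and their genes were followed here in perirenal adipose tissue (the fat that surrounds the kidney) of sheep before and after birth. Members were chosen by name from a list of 37 synthetase genes, 21 of the cytosol and 16 of the mitochondria, where a name ending in 2 marks a mitochondrial enzyme except for TARSL2. Of these, 33 stand in the table of 24390 genes, 19 cytosolic and 14 mitochondrial. LARS, VARS, SARS2 and YARS2 are not analysed here. All 33 passed the filter on low counts and were tested.

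The tissue came from pure-bred Merino sheep of wild-type genotype, with no treatment per the labels. There were 3 fetuses at 132 days post conception, where term is 150 days, and 3 lambs, whose age the labels give as 80 days after birth, as 89 days and as 12 weeks. VEH stands in the titles of the lamb samples, and no source used here says what it means. Ewes of both groups were kept at maintenance energy intake, and lambs stayed with their dams until weaning. The 3 libraries of a stage are biological replicates per the submitters.

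Each cell runs protein synthesis in the cytosol, on ribosomes that read nuclear messages, and in the mitochondrion, on ribosomes that read the few messages of the mitochondrial genome. Both need charged tRNAs, and for most amino acids separate nuclear genes encode the cytosolic and the mitochondrial synthetase. Several cytosolic synthetases sit together in a multisynthetase complex held by the scaffold proteins AIMP1, AIMP2 and EEF1E1. Brown fat carries many mitochondria, whose respiratory chain needs subunits made by the mitochondrial ribosome, and perirenal fat of sheep is known to be brown-like around birth and white later. Many cytosolic synthetase genes are known targets of ATF4, the transcription factor of the amino acid response.

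Libraries held between 15907128 and 19150428 counts, and a count of 0 allows at most 0.189 CPM on unscaled totals, by counting error alone. Genes of the mitochondrial genome took 27.5 to 40.7% of the counts in fetal libraries and 7.37 to 8.29% in lamb libraries. Values per gene are CPM, the count per 1e+06 counts of a library, scaled by TMM (a factor per library that limits the effect of a few very abundant genes). Differences are log2, lamb minus fetus, ± SE, and genes with a p below 0.05, adjusted by Benjamini-Hochberg across the 13624 tested, were called. Adipocyte markers were present in every library, with a summed level of 13168 to 16430 CPM in fetuses and 27229 to 37679 CPM in lambs.

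The mitochondrial synthetases were lower in lambs almost throughout. Of 14 tested, 11 fell, 0 rose and 3 were not called, and their median log2 difference was -0.94. Over all genes tested, 22.7% were called lower, 22.0% were called higher, 44.7% were called in either direction and the median was -0.011. The cytosolic synthetases did not move together, with 3 of 19 higher, 2 lower and 14 not past the test (median 0.16). The called shares of the cytosolic group lie below those of all genes in both directions.

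**Figure D1:**
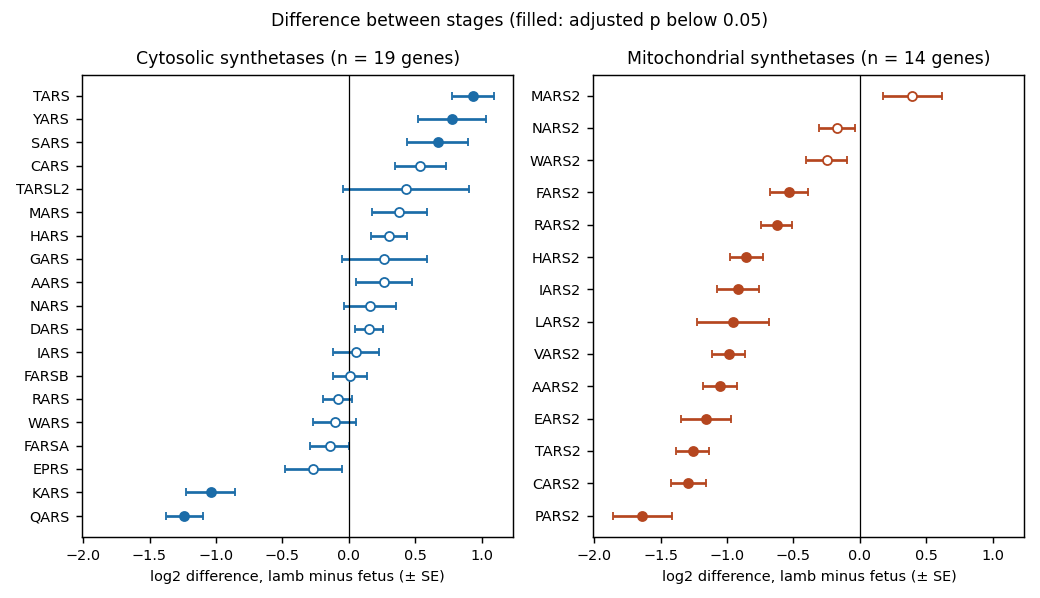
Log2 difference, lamb minus fetus, with its SE, for each cytosolic (left) and mitochondrial (right) synthetase gene; filled points have adjusted p below 0.05. The 11 filled mitochondrial points all lie below 0, while the 5 filled cytosolic points are TARS, YARS and SARS above 0 and KARS and QARS below it.

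PARS2, which charges the mitochondrial proline tRNA, changed most among the members (ENSOARG00000009941, chromosome 1, 28960102 to 28961547 on Oar v3.1). It was at 5.80, 5.08 and 6.56 CPM in the fetal libraries and at 1.98, 1.97 and 1.65 CPM in the lamb libraries. The stages did not overlap, and the log2 difference was -1.64 ± 0.22 (adjusted p = 9.64e-04), a level 3.11-fold lower in lambs. Stages that do not overlap were found for 57.7% of all genes tested, and for 11 of 14 mitochondrial and 7 of 19 cytosolic members.

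CARS2, the mitochondrial cysteinyl-tRNA synthetase (chromosome 10, 84588049 to 84606342), was at 52.7, 63.0 and 47.6 CPM in fetuses and at 22.4, 20.9 and 23.4 CPM in lambs. It fell by 1.29 ± 0.13 on the log2 scale (adjusted p = 3.14e-04), with lamb values close to each other. TARS2, the threonine enzyme (chromosome 1, 99428961 to 99440451), went from 103, 113 and 96.6 CPM to 42.8, 39.7 and 48.4 CPM. Its fall was 1.26 ± 0.13 (adjusted p = 2.71e-04), and every lamb library lay far under the lowest fetal one.

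EARS2 charges mitochondrial glutamate tRNA and also places glutamate on the glutamine tRNA, from which a separate amidotransferase makes the glutaminyl form. EARS2 (chromosome 24, 21219716 to 21246828) was at 16.0, 14.2 and 17.5 CPM in fetuses and 5.53, 8.30 and 7.55 CPM in lambs. The log2 difference was -1.16 ± 0.19 (adjusted p = 0.00212). AARS2, for alanine (chromosome 20, 17878009 to 17889810), was at 31.4, 35.3 and 38.5 CPM before birth and 17.8, 15.2 and 17.6 CPM after it. This is a log2 difference of -1.05 ± 0.13 (adjusted p = 6.28e-04), again without overlap.

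The remaining called mitochondrial members fell by less than AARS2. VARS2, for valine, fell by 0.99 ± 0.13, and LARS2, for leucine, by 0.95 ± 0.27. IARS2, for isoleucine, fell by 0.92 ± 0.16, HARS2, for histidine, by 0.85 ± 0.12, RARS2, for arginine, by 0.63 ± 0.12 and FARS2, for phenylalanine, by 0.53 ± 0.14. LARS2 varied most among them within a stage, at 64.1, 91.3 and 52.5 CPM in fetuses and 31.0, 27.4 and 48.8 CPM in lambs (adjusted p = 0.0236). LARS2 no longer passed when fetal library 2 (adjusted p = 0.0734), lamb library 1 (0.0799) or lamb library 2 (0.0720) was left out. The FARS2 call (adjusted p = 0.0169) was lost without fetal library 2 (0.0577) or 3 (0.0530).

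The 3 mitochondrial members that did not pass were WARS2, NARS2 and MARS2, the tryptophan, asparagine and methionine enzymes. WARS2 had a mean of 23.3 ± 1.77 CPM before birth and of 19.6 ± 3.29 CPM after it (SD, n = 3), a log2 difference of -0.25 ± 0.15 with adjusted p = 0.220. NARS2 was at 21.4 ± 2.00 and 19.0 ± 2.06 CPM (-0.17 ± 0.14, adjusted p = 0.335). MARS2 had the single positive difference of the group, at 0.40 ± 0.22 (adjusted p = 0.180), with 8.97, 6.03 and 10.7 CPM in fetuses and 10.5, 12.6 and 10.8 CPM in lambs.

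QARS and KARS were the cytosolic members that fell. QARS, the glutamine enzyme of the multisynthetase complex (ENSOARG00000015195, chromosome 19, 50859155 to 50866515), was at 315, 392 and 385 CPM in fetuses and 166, 149.8 and 148 CPM in lambs. The stages were well apart, and the log2 difference was -1.24 ± 0.14 (adjusted p = 4.20e-04), a level 2.36-fold lower in lambs. There is no separate mitochondrial glutamine synthetase in mammals, so QARS has no partner in the list.

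KARS, for lysine (ENSOARG00000006928, chromosome 14, 2302972 to 2319972), is known to give both the cytosolic and the mitochondrial enzyme through alternative splicing, and the table counts both forms in 1 row. It was at 659.8, 836 and 690.0 CPM in fetuses and 375, 408 and 281 CPM in lambs. The fall was 1.04 ± 0.18 on the log2 scale (adjusted p = 0.00331). GARS, for glycine, is the other gene known to serve both compartments, from alternative start sites. GARS (chromosome 4, 65658403 to 65709502) was at 72.0, 79.3 and 64.3 CPM in fetuses and 51.8, 72.9 and 135 CPM in lambs, so the stages overlapped widely. Its log2 difference of 0.27 ± 0.32 (adjusted p = 0.520) became -0.20 when lamb library 3 was left out (adjusted p = 0.400).

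TARS, the cytosolic threonine enzyme, rose most among the members (ENSOARG00000012085, chromosome 16, 40229272 to 40250506). The fetal libraries were nearly equal at 116, 115 and 116 CPM, and the lamb libraries were at 191, 201 and 272 CPM. The log2 difference was 0.93 ± 0.16 (adjusted p = 0.00268), a level 1.91-fold higher in lambs. Leaving out lamb library 3 gave 0.76 (adjusted p = 0.00368). TARSL2, its close relative of the cytosol (chromosome 18, 27809147 to 27853649), had only 7 to 24 counts per library. At 1.37, 0.515 and 0.477 CPM in fetuses and 1.14, 1.25 and 0.850 CPM in lambs, a difference was not detectable at this depth (0.43 ± 0.48, adjusted p = 0.489).

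YARS, for tyrosine (chromosome 2, 233933828 to 233964556), was at 27.0, 25.7 and 28.6 CPM in fetuses and 31.1, 42.0 and 66.2 CPM in lambs. The log2 difference was 0.78 ± 0.25 (adjusted p = 0.0396). SARS, for serine (chromosome 1, 85679981 to 85699849), was at 107, 115 and 106 CPM in fetuses and 122.8, 160.4 and 238 CPM in lambs (0.67 ± 0.23, adjusted p = 0.0459). In both genes every lamb value lay above every fetal value, and lamb library 3 was the highest. Without lamb library 3 the differences were 0.43 for YARS (adjusted p = 0.0658) and 0.38 for SARS (0.0941). Both calls were also lost without fetal library 1 (adjusted p = 0.0948 for YARS and 0.111 for SARS), fetal library 2 (0.108 and 0.0899), fetal library 3 (0.0768 and 0.109) or lamb library 2 (0.0605 and 0.0702). With limma-voom neither passed (0.0584 and 0.0531), and SARS did not pass with upper-quartile factors (0.0534).

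Among the cytosolic members that did not pass, differences ran from -0.27 for EPRS to 0.54 for CARS. CARS, for cysteine, was at 22.4, 22.0 and 22.7 CPM in fetuses and 24.7, 30.7 and 42.0 CPM in lambs, without overlap (0.54 ± 0.19, adjusted p = 0.0522). On leaving out each library CARS ranged from 0.31 (without lamb library 3, adjusted p = 0.114) to 0.71 (without lamb library 1, adjusted p = 0.0141), and the other 4 left-out libraries did not bring it past the threshold. It passed with DESeq2 size factors (adjusted p = 0.0459), DESeq2's Wald test (0.0322), edgeR's exact test (0.0388) and library totals (0.00372). EPRS carries the glutamate and the proline enzyme in 1 protein and was at 255, 235 and 241 CPM in fetuses and 143, 201 and 263 CPM in lambs (adjusted p = 0.338). WARS, the tryptophan enzyme and a known interferon-induced gene, was at 62.1, 61.2 and 71.8 CPM in fetuses and 47.5, 69.2 and 64.6 CPM in lambs (-0.11 ± 0.16, adjusted p = 0.616). Of 7 other interferon-induced genes tested, 1 rose and 0 fell, while 6 had negative differences that did not pass, and the median was -0.86. The share called higher was 14.3%, against 22.0% of all genes tested.

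The other uncalled cytosolic members can be given by their log2 differences. AARS, for alanine, was at 0.26 ± 0.21, MARS, for methionine, at 0.38 ± 0.20, and NARS, for asparagine, at 0.16 ± 0.20. DARS, for aspartate, was at 0.15 ± 0.11, IARS, for isoleucine, at 0.054 ± 0.18, and RARS, for arginine, at -0.084 ± 0.11. FARSA and FARSB, the alpha and beta subunits of the phenylalanine enzyme, were at -0.14 ± 0.15 and 0.010 ± 0.13. The signs of AARS and IARS turned without lamb library 3, to -0.011 and -0.15.

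**Figure D2:**
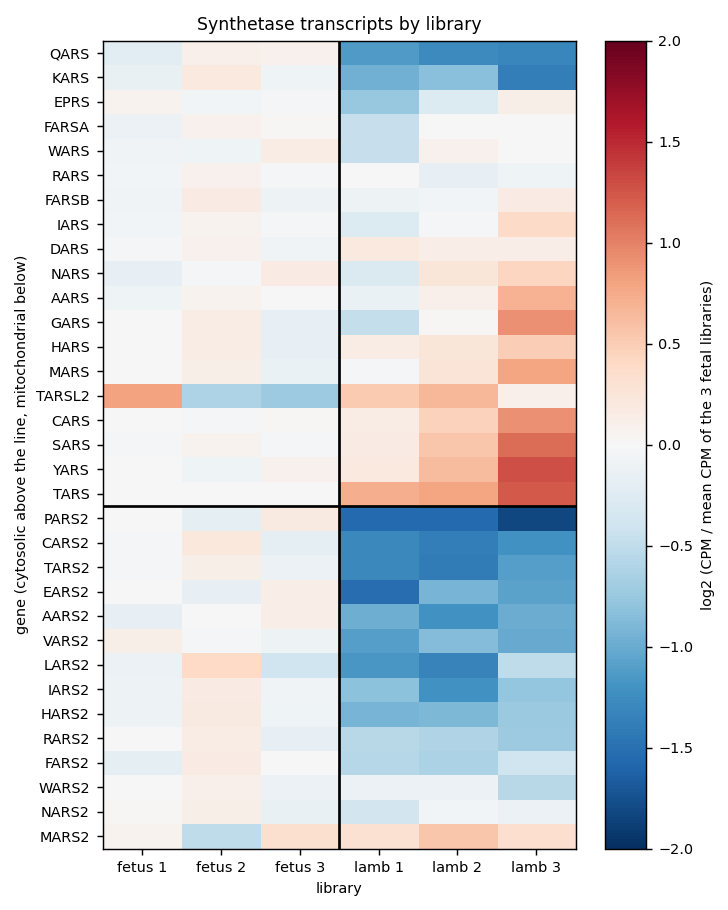
Log2 ratio of the CPM of each library to the mean of the 3 fetal libraries, for every member, cytosolic above the horizontal line and mitochondrial below it, ordered by the stage difference; red is higher, blue is lower. The called mitochondrial genes are blue in all 3 lamb libraries, whereas many cytosolic genes are deepest red in lamb library 3.

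Members of the multisynthetase complex and free cytosolic enzymes are set side by side here as a description, since the grouping was made with values in view. Of 7 members of the complex tested, 2 fell (QARS and KARS) and 0 rose, with a median of -0.084. Of 12 free enzymes, 3 rose (TARS, YARS and SARS) and 0 fell, with a median of 0.29. These shares, 28.6% lower in the complex and 25.0% higher among the free enzymes, are near the 22.7% and 22.0% of all genes tested. The 3 scaffold genes did not pass the test. AIMP1 was at 0.010 ± 0.21 (adjusted p = 0.974), AIMP2 at 0.073 ± 0.18 (0.762) and EEF1E1 at 0.17 ± 0.20 (0.514). The ancient catalytic classes of synthetases divided the mitochondrial members little, with 6 of 8 of class I and 5 of 6 of class II lower.

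Ratios of the mitochondrial to the cytosolic gene within a library do not depend on how libraries are scaled to each other, and they were formed for 12 amino acids from 13 gene pairs. In 12 of 13 pairs the mean log2 ratio was lower in lambs, in 10 pairs the stages did not overlap, and all 10 of those were lower. A share over ratios of other gene pairs was not computed. Taken singly, 57.7% of all genes tested had stages that did not overlap. Before birth the ratio TARS2 to TARS was -0.18, -0.022 and -0.27, and in lambs it was -2.16, -2.34 and -2.49, a difference of -2.18. The fetal tissue thus held similar counts of both threonine genes, and the lamb tissue far fewer of the mitochondrial one. CARS2 to CARS changed sign, from 1.24, 1.52 and 1.07 to -0.14, -0.56 and -0.84 (difference -1.79).

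HARS2 to HARS went from 0.82, 0.94 and 0.98 to -0.15, -0.24 and -0.32, a difference of -1.15. These histidine genes are neighbours on chromosome 5, HARS from 49189098 to 49201632 and HARS2 from 49201728 to 49210025, with 95 bases between them. HARS was at 28.1, 31.6 and 25.4 CPM in fetuses and 31.3, 33.7 and 39.9 CPM in lambs (0.30 ± 0.14, adjusted p = 0.109). HARS2 was at 49.6, 60.5 and 50.0 CPM in fetuses and 28.2, 28.5 and 31.9 CPM in lambs (-0.85 ± 0.12, adjusted p = 0.00128). Of these neighbours HARS2 was called and HARS was not.

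For MARS2 to MARS the ratio difference was 0.088, for WARS2 to WARS -0.14 and for NARS2 to NARS -0.31, and in these 3 pairs the stages overlapped. With 3 animals per stage the two-sided exact permutation test cannot go below p = 0.1, which the 10 separated pairs reached (0.13 after Benjamini-Hochberg adjustment over the 13 pairs). PARS2 and EARS2 share the partner EPRS, and FARS2 was set against both FARSA and FARSB, so the pairs are not independent. A ratio of counts holds the difference in transcript length, which is the same in every library.

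**Figure D3:**
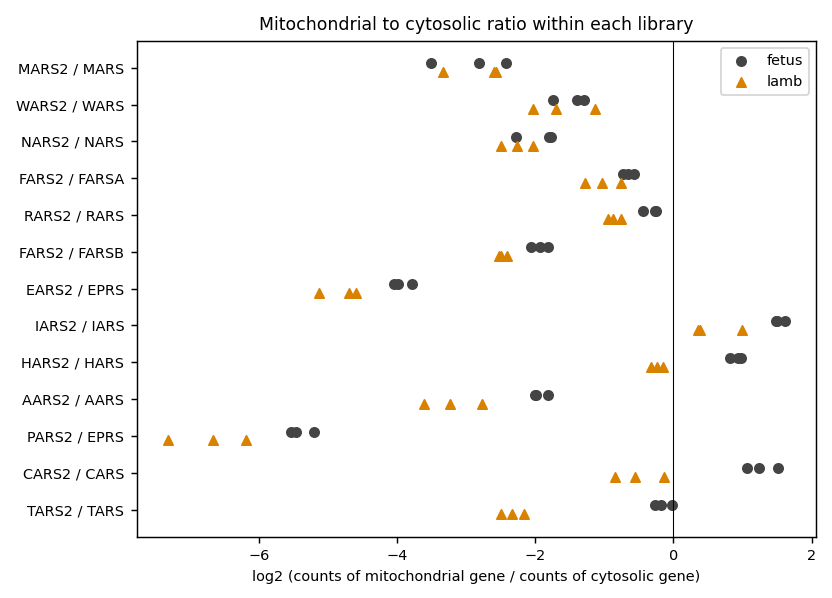
Log2 ratio of the counts of a mitochondrial synthetase gene to those of its cytosolic partner in each library, fetal libraries as grey circles and lamb libraries as orange triangles, ordered by the difference between stages. Triangles lie left of all circles in 10 of 13 pairs, with the widest gap for TARS2 to TARS.

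Summed over the members, mitochondrial genes held 32.7, 33.4 and 30.4 counts for every 100 cytosolic counts before birth, against 23.8, 18.8 and 19.0 in lambs. KARS and QARS together carry much of the cytosolic sum before birth. Without them the values were 57.1, 63.5 and 55.3 in fetuses and 34.1, 25.9 and 23.2 in lambs, so the stages stayed apart either way.

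Levels between genes can be compared only per length, from the authors' mean RPKM (reads per kilobase of gene model, scaled to sequencing depth) of a stage. In fetuses QARS stood first with 101 RPKM, then KARS with 94.7 RPKM and IARS2 with 60.1 RPKM. In lambs SARS stood first with 104 RPKM, then TARS with 98.0 RPKM and KARS with 65.2 RPKM, while QARS was the sixth and IARS2 the ninth. TARSL2 was lowest in fetuses with 0.682 RPKM and PARS2 in lambs with 1.11 RPKM. For 31 of 33 members the ratio of mean counts to mean RPKM changed between stages by the same factor within 15%. RARS2 and FARS2 departed by more, at -28.4% and -17.7%, so their RPKM does not follow their counts. The authors' mean RPKM was higher in lambs for both, at 16.3 against 21.0 RPKM for RARS2 and 3.74 against 4.47 RPKM for FARS2 (fetus first), which is opposite to the falls called from their counts scaled by TMM. With counts scaled by library totals these falls were not called, at -0.14 for RARS2 (adjusted p = 0.470) and -0.053 for FARS2 (0.818). Both differences stayed negative there, so the sign still differed from that of the RPKM.

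Other genes of mitochondrial translation were described from lists fixed alongside the members. Of 11 mitochondrial translation factors, 7 fell and 0 rose, with a median of -0.78. The share called lower was 63.6%, against 22.7% lower and 22.0% higher of all genes tested. TUFM, the elongation factor that brings charged tRNA to the mitochondrial ribosome, was at 304, 431 and 309.7 CPM in fetuses and 71.9, 69.3 and 89.9 CPM in lambs. It fell by 2.18 ± 0.19 (adjusted p = 1.64e-04), more than any synthetase. GUF1, a GTPase of the same ribosome, fell by 2.10 ± 0.26, and GFM1, which moves the ribosome along the message, by 1.67 ± 0.19.

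Of 11 genes of mitochondrial transcription and genome upkeep, 6 (54.5%) fell and 0 rose (median -0.43). Over all genes tested 22.7% were called lower and 22.0% higher. LRPPRC, which stabilises mitochondrial messages, fell by 1.77 ± 0.15, MTERF, a transcription termination factor, by 1.40 ± 0.12 and TFB1M, a methyltransferase of mitochondrial ribosomal RNA, by 1.00 ± 0.21. Of 15 genes of mitochondrial tRNA maturation, 6 (40.0%) fell and 3 (20.0%) rose (median -0.44). The share of rises is near the 22.0% of all genes. The tRNA-modifying genes CDK5RAP1, OSGEPL1 and GTPBP3 fell by 1.19 ± 0.16, 1.14 ± 0.14 and 0.78 ± 0.13. YRDC, which makes the precursor that OSGEPL1 transfers to tRNA and also serves the cytosol, rose by 0.80 ± 0.13. TRIT1 and TRMT10C rose as well, by 0.66 ± 0.20 and 0.59 ± 0.13.

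Of 4 tested genes that finish mitochondrial glutaminyl-tRNA and formylmethionyl-tRNA or act on their products, 3 fell and 1 rose. These are 75.0% and 25.0%, against 22.7% lower and 22.0% higher of all genes tested. PET112, the older name of the amidotransferase subunit GATB, went from 26.1, 30.7 and 21.7 CPM to 11.6, 10.4 and 15.5 CPM (-1.06 ± 0.19, adjusted p = 0.00374). EARS2, whose product it acts on, had fallen by 1.16. PDF, which removes the formyl group from new chains, fell by 1.17 ± 0.30, a call lost without fetal library 2 (adjusted p = 0.0519). MTFMT, which formylates the methionyl-tRNA made by MARS2, fell by 0.62 ± 0.21 (adjusted p = 0.0473), a call lost without fetal library 1 (0.0872), 2 (0.132) or 3 (0.0965) or lamb library 2 (0.119) or 3 (0.114). The MTFMT call was also lost with DESeq2 size factors (0.0522), every gene with a count (0.0589), the prefiltered genes (0.0574), the exact test (0.0567), the replicate block (0.0600) and library totals (0.650). PTRH2, a mitochondrial peptidyl-tRNA hydrolase, rose by 0.88 ± 0.18.

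**Figure D4:**
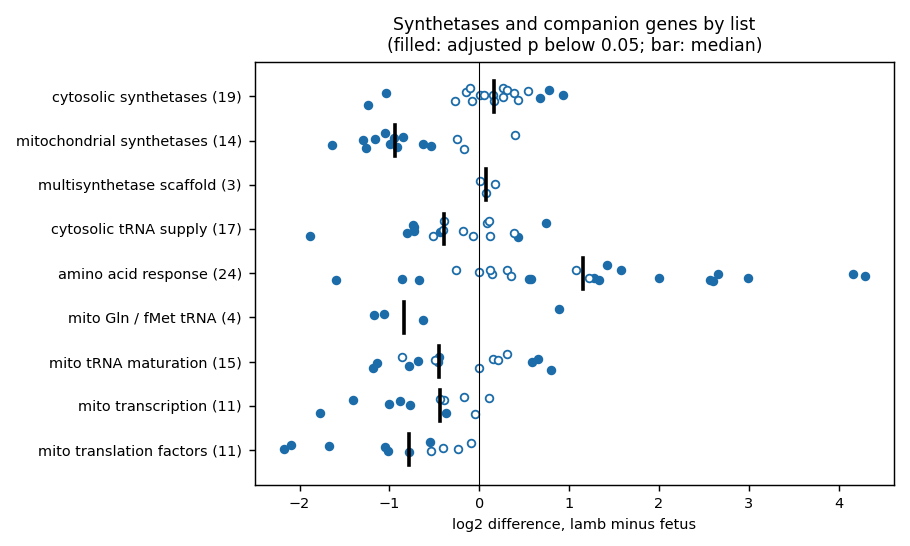
Log2 difference, lamb minus fetus, of each tested gene in the synthetase groups and in companion lists, with the number of genes in brackets; filled points have adjusted p below 0.05 and bars mark medians. Mitochondrial synthetases and translation factors lie mostly left of 0, while amino acid response genes have a median of 1.15.

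Of 24 tested genes of the amino acid response, including ATF4 and its known targets, 13 rose, 3 fell and 8 did not pass (median 1.15). The called shares were 54.2% higher and 12.5% lower, against 22.0% and 22.7% of all genes tested. ATF4 itself was at 263, 276 and 263 CPM in fetuses and 572, 671 and 706 CPM in lambs, a rise of 1.28 ± 0.14 (adjusted p = 3.69e-04). The largest rises of the list were ATF3 with 4.30 ± 0.23, a stress-induced transcription factor, CTH with 4.15 ± 0.49, an enzyme of cysteine synthesis, and DDIT4 with 2.99 ± 0.20, an inhibitor of mTOR signalling. PHGDH, the first enzyme of serine synthesis, fell by 1.59 ± 0.52 (adjusted p = 0.0379). That call was lost on leaving out fetal library 1 (adjusted p = 0.0853), 2 (0.0716) or 3 (0.0698) or lamb library 1 (0.0991) or 2 (0.0961), and the fall was 2.59 on leaving out lamb library 3. ATF4 was higher in every lamb than in any fetus. Of 19 cytosolic synthetases, 3 were called higher (15.8%, against 22.0% of all genes tested), and a link to ATF4 was not tested.

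Lamb library 3 stood apart in several cytosolic synthetases. It was the highest lamb library for 12 of 19 cytosolic and 6 of 14 mitochondrial members, against 35.4% of all genes tested. Its CPM was 2.17 times the mean of the other lamb libraries for GARS, 1.81 times for YARS, 1.68 times for SARS and 1.63 times for AARS, but 0.938 times for QARS and 0.717 times for KARS. Among mitochondrial members this ratio ran from 0.735 for WARS2 to 1.67 for LARS2, so a high value was not confined to the cytosolic group. AARS was at 122.1, 143 and 216 CPM in lambs, against 125, 140.3 and 135 CPM in fetuses. The median coefficient of variation of the cytosolic members was 20.0% in lambs and 6.90% in fetuses, against 9.92% and 10.6% for the mitochondrial members and 16.3% and 12.6% for all genes.

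Of the 24 tested amino acid response genes, 16 were above the mean of the other lambs in that library and 8 below it, with a median ratio of 1.17. The same share over all genes tested was not computed, so this count has no background to be set against. The ratio ran from 0.485 for SESN2, a sestrin, to 7.14 for PSAT1. The following genes were chosen after their values were seen. ASNS, asparagine synthetase, was at 41.2, 33.5 and 59.5 CPM in lambs, and SLC3A2, the shared chain of amino acid exchangers, at 89.4, 145 and 220.3 CPM. PHGDH was at 7.21, 7.42 and 29.2 CPM in lambs, below the fetal 49.4, 39.7 and 43.1 CPM, and PSAT1, the next enzyme of serine synthesis, at 1.88, 1.97 and 13.7 CPM. In contrast ATF3 was at 64.0, 95.8 and 56.7 CPM and thus not highest there. The part of that animal's state or of its library in these values was not tested.

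**Figure D5:**
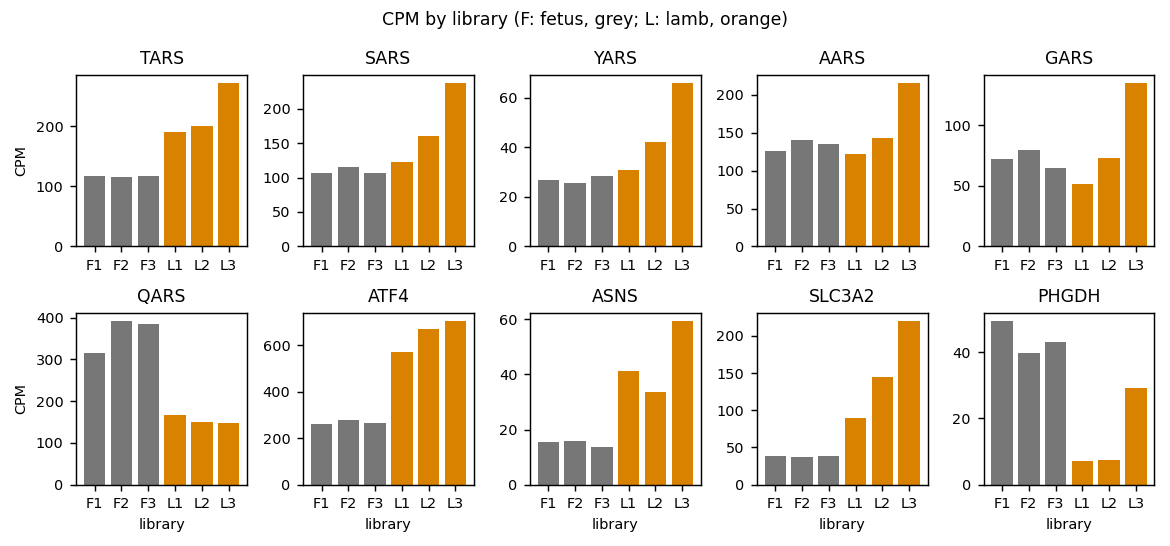
CPM in each library, fetal in grey and lamb in orange, for 6 cytosolic synthetases and 4 genes of the amino acid response. GARS, AARS, YARS and SARS are highest in lamb library 3, as are ASNS and SLC3A2, whereas QARS is low in all 3 lamb libraries.

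Genes tied to cytosolic tRNA supply were those of RNA polymerase III, its factors, its repressor MAF1 and tRNA export. As a repressor is counted with the rest, the counts give no direction of tRNA supply. Of 17 tested, 6 were lower and 2 higher (median -0.39). These are 35.3% and 11.8%, against 22.7% lower and 22.0% higher of all genes tested. POLR3B, a polymerase subunit, fell by 0.80 ± 0.12, MAF1, a repressor of that polymerase, fell by 0.74 ± 0.11, and BRF2, an initiation factor, rose by 0.74 ± 0.12. Of 4 cytosolic elongation factor genes, EEF1G alone passed and fell by 0.85 ± 0.18 (25.0% lower, near the share of all genes). Of 9 amino acid sensing genes 3 rose (33.3%) and 2 fell (22.2%, near the share of all genes). SESN1, a sestrin that restrains mTOR, rose by 1.98 ± 0.21, SESN3 by 1.31 ± 0.41 and RRAGC by 0.40 ± 0.13, and MTOR fell by 0.66 ± 0.16. SESN3 did not pass on leaving out fetal library 2 (adjusted p = 0.103), fetal library 3 (0.0730) or lamb library 1 (0.0681). RRAGC did not pass on leaving out fetal library 1 (0.107), 2 (0.113) or 3 (0.0695) or lamb library 3 (0.0894). The RRAGC call was also lost with upper-quartile factors (0.0539), edgeR's exact test (0.0828) and library totals without genes of the mitochondrial genome (0.0512). SESN3 did not pass with limma-voom (0.0540), nor MTOR with library totals (0.426). Of 5 genes of the selenocysteine route SECISBP2 rose by 0.77 ± 0.13 and SEPHS1 fell by 0.59 ± 0.10. This is 20.0% in each direction, near the shares of all genes. PTRHD1, the single tested gene among those for tRNA editing and deacylation, did not pass.

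Cell type markers differed between the stages as well, and in bulk tissue fewer cells of a type and less RNA per cell cannot be told apart. For the counts that follow, 22.7% of all genes tested were called lower and 22.0% higher. All of 7 brown adipocyte markers had lower means in lambs and 5 of them fell, with a summed level of 1499 to 2686 CPM in fetuses and 532 to 654 CPM in lambs. Of 8 macrophage markers 7 rose, from 118 to 222 CPM in fetuses to 1127 to 1375 CPM in lambs, and 12 of 13 proliferation genes fell. All 8 urothelium markers fell, from a sum of 53.7 to 187 CPM to one of at most 0.692 CPM. At that lamb level they passed the filter on low counts through the fetal libraries, so they could only be called lower. Of the red cell markers 4 of 4 fell, from 359.6 to 1275 CPM to 30.6 to 56.3 CPM. Of 6 tested markers each, endothelium had 1 higher and 2 lower and T and B cells 2 higher and 0 lower. Of 7 fibroblast markers 3 rose and 0 fell, of 2 skeletal muscle markers 1 fell, and 0 of 3 kidney and adrenal markers passed. The part of these changes in the synthetase values was not tested.

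When libraries were scaled by their totals alone, the median of all genes was 0.46, and the synthetases moved up with it. Under it 6 mitochondrial members were called lower and 1 (MARS2) higher, and 11 cytosolic members were called higher and 2 lower. With totals that leave out the genes of the mitochondrial genome the median of all genes was -0.020, and the counts were 11 and 0 for the mitochondrial and 3 higher and 2 lower for the cytosolic members, as with TMM. Some members overlap another gene, and no source used here says whether counting used strand. MARS shares 2660 bases with DDIT3, IARS2 1424 bases with RAB3GAP2, HARS2 147 bases with ZMAT2 and RARS2 121 bases with SLC35A1.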

How the data were processed

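RNA from 6 perirenal fat samples was sequenced as single-end 50 bp reads on 1 flowcell, per the labels' protocols. The authors mapped reads to Ensembl release 74 gene models of Oar v3.1 in CLC Genomics Workbench 7.0, per the series' design text, and deposited counts per gene and library, which are raw counts. The authors also deposited RPKM as a mean per stage, used for description only. The 12 RPKM columns of single libraries were not used, because a header repeats. No source used here gives the read filters, the treatment of multiple placements or the strand setting.

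From these counts, edgeR 4.0.16 in R 4.3.3 was run (filterByExpr, TMM, quasi-likelihood F test without covariates); p-values were adjusted by Benjamini-Hochberg across the 13624 genes that passed the filter, and values below 0.05 were called. SE is the log2 difference divided by the root of F. The steps were tested on simulated data. Alternatives were other scalings and filters, DESeq2 1.42.0, limma 3.58.1 (voom), edgeR's exact test, a replicate block and leaving out each library. Members and lists were chosen with earlier results of these data known. The lists cover tRNA supply, elongation, mitochondrial translation and tRNA maturation, the amino acid response and sensing, the selenocysteine route, editing, interferon, proliferation and cell type markers. Library values are given for the 5 called members of largest change per class, those against the class's direction, genes serving both compartments, neighbours and other members fixed by name. From each list the 3 largest calls in the main direction and 1 in the other are named. Some genes are not reported here. The bound on a count of 0 covers counting error only, while SE and SD include the spread between animals. A motif search in promoters was not run.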

Additional observations from a re-analysis of the deposited data

How the results depend on the processing

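Of 17 alternatives, scaling by library totals changed most. Under it 5598 genes were called higher and 1459 lower, against 3002 and 3093 with TMM. The cytosolic median was then 0.64 and the mitochondrial median -0.44, with 11 cytosolic and 1 mitochondrial members higher and 6 mitochondrial members lower, and signs turned for EPRS (0.20), FARSA (0.33), WARS (0.36), RARS (0.40), WARS2 (0.24) and NARS2 (0.31). Companion counts under it were 2 higher for the scaffold, 1 lower for the glutaminyl and formylmethionyl enzymes, 7 higher and 2 lower for tRNA maturation, 4 lower for translation factors, 2 higher and 2 lower for mitochondrial transcription, 0 lower for the amino acid response and 5 higher and 1 lower for tRNA supply. With upper-quartile factors the mitochondrial median was -0.997, and FARSB (-0.049), IARS (-0.0074) and AIMP1 (-0.042) turned. With at least 5 CPM in 3 libraries FARSB (-0.028) and AIMP1 (-0.024) turned, and PARS2 and TARSL2 were not tested. Called higher were 1 cytosolic member with limma-voom and 1 tRNA supply gene with the exact test. The cause of these shifts was not tested.

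Leaving out 1 library gave 1 to 4 cytosolic members called higher, 2 lower in each case, and 9 to 11 mitochondrial members lower. The cytosolic median lay between -0.011 (without lamb library 3) and 0.35, and the mitochondrial one between -0.99 and -0.79. Signs turned within these ranges for AARS (-0.011 to 0.43), GARS (-0.20 to 0.54), IARS (-0.15 to 0.20), FARSB (-0.072 to 0.0995), WARS (-0.21 to 0.044), AIMP1 (-0.19 to 0.21) and AIMP2 (-0.065 to 0.23), none of them called. Companion counts ranged from 1 to 3 lower for the glutaminyl and formylmethionyl enzymes, 1 to 3 lower for the amino acid response and 1 to 3 higher for tRNA supply. The 2 lower cytosolic calls, TARS, and 6 of the 11 mitochondrial calls (PARS2, CARS2, TARS2, EARS2, AARS2 and VARS2) held under every alternative in which they were tested.

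Correlations of same-numbered deviations were 0.003, -0.116 and 0.046, and those of differently numbered ones ran from -0.140 to 0.140. Values this close to each other cannot show whether sample numbers pair the animals. With the replicate block 10 mitochondrial members were lower and 2 cytosolic members higher, LARS2 being at adjusted p = 0.0534 and SARS at 0.0643. Depth limits TARSL2 and, at 33 to 110 counts per library, PARS2.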
